A study of Homo sapiens with 4 samples.

Results

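Transcripts of the mitochondrial genome were followed in RNA sequencing of control and ANP32B knockdown cells of Kasumi-1, a long-established human cell line of acute myeloid leukemia (AML). The genes were chosen by symbol, as every row of the deposited table whose gene name starts with MT-, which gave 37 genes of 18567. They comprise 13 protein coding genes, 2 ribosomal RNA (rRNA) genes and 22 transfer RNA (tRNA) genes, the whole known gene set of the circular mitochondrial DNA. The labels give 2 samples named NC and 2 named sh-ANP32B, and the comparison asks how RNA levels differ when ANP32B, a histone-binding acidic nuclear phosphoprotein, is depleted. The NC samples carry the labels of untreated cells with no hairpin, while the methods describe lentiviral hairpins with puromycin selection of stable lines, so whether NC cells received a virus or the drug is not known. The sh-ANP32B samples carry a short hairpin RNA against ANP32B, and which of the 3 hairpins of the study was used in each is not given. Nothing states that replicates came from separate cultures, so p-values measure only the spread between these samples.

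Mitochondrial DNA is transcribed from both strands as long precursors that run through nearly the entire circle. The tRNAs lie between most of the other genes like punctuation, and cutting them out by RNase P and RNase Z releases the messengers and the rRNAs, most of which then receive short poly(A) tails. All 13 proteins are core subunits of the respiratory chain or the ATP synthase in the inner mitochondrial membrane, where they join many more subunits encoded in the nucleus.

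Values are TPM, a transcript abundance unit that is scaled to gene length and to the total of the sample, so values are shares and carry no sequencing depth. The sample sums lay between 997812 and 998314. ANP32B itself was at 383.8 and 392 TPM in NC and at 51.8 and 41.2 TPM in sh-ANP32B, 11.99% of the NC mean (log2 fold change -3.04, SE 0.150, limma adjusted p = 0.00516). The myeloid antigen CD33 was at 58.5 to 70.1 TPM in the 4 samples. RUNX1T1, the fusion partner gene of t(8;21) AML, was at 17.6 and 15.6 TPM in NC and at 31.2 and 26.8 TPM in sh-ANP32B (log2 fold change 0.77, limma adjusted p = 0.0632). The progenitor receptor KIT was low, at 1.55 and 2.31 TPM in NC and at 3.41 and 2.76 TPM in sh-ANP32B, and MPO and CD34 were not analysed here. In all 3 markers both sh-ANP32B samples lay above both NC samples, as in 33.2% of all genes tested, and none was called at an adjusted p under 0.05.

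The 37 genes took up a smaller share of RNA in both sh-ANP32B samples than in either NC sample, and the 2 sh-ANP32B samples were far apart. Their summed share of the TPM total was 12.9% and 13.1% in NC and 11.4% and 8.43% in sh-ANP32B. The mean was 13.04% ± 0.128 in NC and 9.94% ± 2.13 in sh-ANP32B (SD, n = 2 each), a difference of -3.10 percentage points. The sh-ANP32B SD was thus of the same order as the difference. With 2 samples against 2, an exact permutation test cannot give a two-sided p below 0.333, and none was run on a share. Without sh-ANP32B replicate 2 the difference was -1.59 points, and with each gene weighted by its transcript length the share was 4.15% in NC and 3.13% in sh-ANP32B, a difference of -1.01 points. In relative terms the sh-ANP32B mean was 76.2% of NC as deposited and 75.6% when weighted by length. A share also falls when the other RNA rises. In these values more nuclear RNA, fewer mitochondria per cell and less RNA per mitochondrion cannot be told apart.

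The 3 classes of gene behaved differently. The 13 coding genes held 10.9% and 11.1% of the TPM total in NC and 9.57% and 6.75% in sh-ANP32B, so replicate 2 was the lowest of the 4 samples. The 2 rRNA genes held 1.03% and 1.06% in NC and 1.14% and 0.865% in sh-ANP32B, and there the NC samples lay between the sh-ANP32B samples. The 22 tRNA genes held 1.06% and 1.01% in NC and 0.733% and 0.815% in sh-ANP32B. In the tRNA sum, unlike that of the coding genes, sh-ANP32B replicate 1 was the lower of the pair. Most of that sum came from the 8 minus-strand tRNA genes, at 0.670% and 0.756% in sh-ANP32B. The 14 plus-strand tRNA genes held 0.0627% and 0.0596% there, with replicate 2 slightly the lower. As a part of the 37-gene sum, the rRNA genes made up 7.93% and 8.09% in NC and 9.97% and 10.3% in sh-ANP32B.

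**Figure D1:**
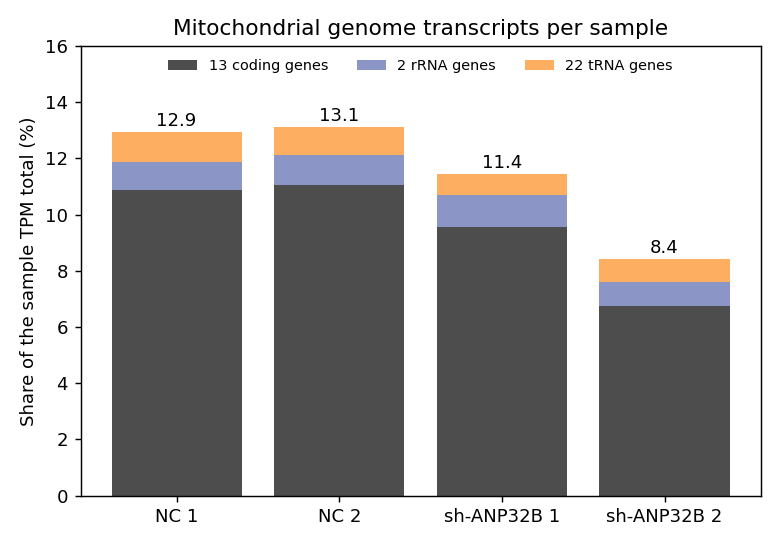
Stacked bars of the share of the TPM total of each sample (%) taken by the 13 coding, 2 rRNA and 22 tRNA genes of the mitochondrial genome, 1 bar for each of the 4 samples. The whole bars stand at 12.9% and 13.1% in NC and at 11.4% and 8.43% in sh-ANP32B, and most of the gap between the sh-ANP32B replicates lies in the coding genes.

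Gene by gene, sh-ANP32B was compared with NC on the log2(TPM + 1) scale with limma, adjusting p-values by the Benjamini-Hochberg method over 16817 genes that reached 1 TPM in 2 or more samples. All 37 genes were among those tested. At an adjusted p under 0.05, 5 of the 37 (13.5%) fell and 0 rose, against 1.18% of all genes tested that fell and 2.14% that rose, 3.32% together. All 5 were tRNA genes. The 37 genes come from shared long precursors and are not replicates of each other, so such counts, here and below, describe the set and carry no p-value. At an unadjusted p under 0.05, 22 of the 37 were lower and 1 was higher, where 8.72% and 15.0% of all genes tested were. By the looser criterion of the study, an unadjusted p under 0.05 and an absolute log2 fold change over 0.5, 20 were lower and 1 was higher, against 6.55% and 12.1% of all genes tested. The median log2 fold change was -0.55 over the 37 genes, with a range from -1.55 to 0.84, and 0.083 over all genes tested. The count of 5 depended on single libraries. It became 33 without sh-ANP32B replicate 1 and 21 without sh-ANP32B replicate 2, when the spread within a group rests on the NC pair, and 4 without either NC replicate, with MT-TH lost. Calls over all genes tested moved as well, from 3.32% to 24.3% without sh-ANP32B replicate 1, 20.7% without sh-ANP32B replicate 2, and 1.93% and 1.62% without NC replicates 1 and 2.

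None of the 13 coding genes passed the limma test at an adjusted p under 0.05, but all 13 had a negative log2 fold change, except that quantile normalization left 11 negative, with MT-CO1 at 0 and MT-ND6 at 0.054, and that MT-ND6 was at 0.32 without sh-ANP32B replicate 2. Quantile normalization sets values by rank, so a gene of equal rank in every sample gets a change of 0 by construction. By the unadjusted p, 7 of the 13 (53.8%) were lower at p under 0.05. In 12 of the 13 both sh-ANP32B samples lay below both NC samples, an arrangement seen in 21.4% of all genes tested. The median log2 fold change was -0.50, with a range from -0.75 to -0.05. Without sh-ANP32B replicate 2 that median was -0.22. After each sample was corrected for GC content, MT-ND1, MT-ND2 and MT-ND4L passed the limma test, where 16.5% of all genes tested were called. With GC correction and the replicate number as a block together, only MT-ND1 of the coding genes passed, where 11.3% of all genes tested were called. With the block alone and no GC correction, MT-ND1, MT-ND2 and MT-ND4L passed, where 8.76% of all genes tested were called. The same genes passed with the crossed pairing as the block, where 11.9% were called. With 1 TPM required in every sample MT-ND1 passed, where 5.61% were called.

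Complex I, NADH dehydrogenase, is the entry point for electrons from NADH, and 7 of its subunits are mitochondrially encoded. MT-ND1, in the membrane arm next to the quinone site, was at 3135 and 3093 TPM in NC and at 2119 and 1608 TPM in sh-ANP32B. Its groups did not overlap, and its sh-ANP32B mean was 59.9% of the NC mean (log2 fold change -0.75, SE 0.163, limma adjusted p = 0.0587). MT-ND2, one of the proton-pumping subunits, was at 4844 and 4860.2 TPM in NC and at 3600.4 and 2496 TPM in sh-ANP32B (log2 fold change -0.69, SE 0.191, limma adjusted p = 0.0952). MT-ND4L, a small membrane subunit, was at 9086 and 9346 TPM in NC and at 6858 and 4597 TPM in sh-ANP32B (log2 fold change -0.71, SE 0.205, limma adjusted p = 0.103). These 3 had the most negative log2 fold changes of the coding genes, and in each the lowest sample was sh-ANP32B replicate 2.

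The remaining complex I genes were closer to NC. MT-ND4, another pumping subunit, was at 14299 and 14641 TPM in NC and at 13017 and 9062 TPM in sh-ANP32B (log2 fold change -0.41, limma adjusted p = 0.263). MT-ND3, which holds a loop near the quinone site, was at 931 and 941 TPM in NC and at 729 and 760.3 TPM in sh-ANP32B (log2 fold change -0.33, limma adjusted p = 0.156). Unlike most of the coding genes, MT-ND3 was nearly equal in the 2 sh-ANP32B samples. MT-ND5, the pumping subunit at the far end of the membrane arm, was at 2291 and 2252 TPM in NC and at 2169 and 1499.8 TPM in sh-ANP32B (log2 fold change -0.33, limma adjusted p = 0.339). MT-ND6, the single coding gene on the opposite strand, was at 2159 and 2248 TPM in NC and at 2746 and 1654 TPM in sh-ANP32B (log2 fold change -0.05, limma adjusted p = 0.930). It was the 1 coding gene whose groups overlapped, with both NC samples between the sh-ANP32B samples.

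Complex IV, cytochrome c oxidase, passes electrons to oxygen, and its 3 catalytic core subunits are encoded here. MT-CO1, which carries the heme and copper site, was the most abundant of the 37 genes per length, at 23034 and 23405 TPM in NC and at 22272 and 15889.7 TPM in sh-ANP32B (log2 fold change -0.30, limma adjusted p = 0.397). MT-CO2, which receives electrons from cytochrome c, was at 16174 and 16643 TPM in NC and at 15659 and 10110.2 TPM in sh-ANP32B (log2 fold change -0.38, limma adjusted p = 0.348). In both genes sh-ANP32B replicate 1 was just below the NC samples and replicate 2 far below. MT-CO3, a core subunit without metal centers, was at 11171 and 10444 TPM in NC and at 7352 and 7521 TPM in sh-ANP32B (log2 fold change -0.54, SE 0.136, limma adjusted p = 0.0796). MT-CO3 did not follow that pattern, as its 2 sh-ANP32B values were close together and both were well under NC.

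Complex III and the ATP synthase, also called complex V, showed the wider replicate gap again. MT-CYB, cytochrome b of complex III, was at 3868 and 3859.6 TPM in NC and at 3148 and 2364 TPM in sh-ANP32B (log2 fold change -0.50, limma adjusted p = 0.138). MT-ATP6, which forms the proton channel of the ATP synthase, was at 10503 and 11169 TPM in NC and at 9274 and 6162 TPM in sh-ANP32B (log2 fold change -0.52, limma adjusted p = 0.201). MT-ATP8, a small subunit of the same enzyme, was at 6889 and 7444 TPM in NC and at 6517 and 3663 TPM in sh-ANP32B (log2 fold change -0.55, limma adjusted p = 0.261). The groups of all 3 were apart, with sh-ANP32B replicate 2 lowest. In NC the levels per length ran in the order MT-CO1, MT-CO2, MT-ND4 and then MT-CO3 and MT-ATP6, and the last 2 overlapped in their NC values.

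MT-ATP8 with MT-ATP6 and MT-ND4L with MT-ND4 share bases, so reads there belong to either gene and the split between the partners is uncertain. MT-ATP6 also ends at chrM:9207, where MT-CO3 starts. The stretches of the first 2 pairs are shown because reads across them can count for either partner. How far the values of the partners are separate measurements was not tested. Both are given 5′ to 3′ on the plus strand of hg38, with the shared bases in capitals, 46 bases for MT-ATP8 and MT-ATP6 in chrM:8515-8584 and 7 bases for MT-ND4L and MT-ND4 in chrM:10730-10796.
MT-ATP8/MT-ATP6: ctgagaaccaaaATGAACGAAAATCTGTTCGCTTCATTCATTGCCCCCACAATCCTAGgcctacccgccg
MT-ND4L/MT-ND4: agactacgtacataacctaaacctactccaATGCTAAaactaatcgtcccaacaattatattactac
Although they overlap, MT-ND4L and MT-ND4 differed in their values, the ratio of MT-ND4 to MT-ND4L being 1.57 and 1.57 in NC and 1.90 and 1.97 in sh-ANP32B. The ratio of MT-ATP6 to MT-ATP8 was 1.525 and 1.5005 in NC and 1.42 and 1.68 in sh-ANP32B, and its groups overlapped.

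**Figure D2:**
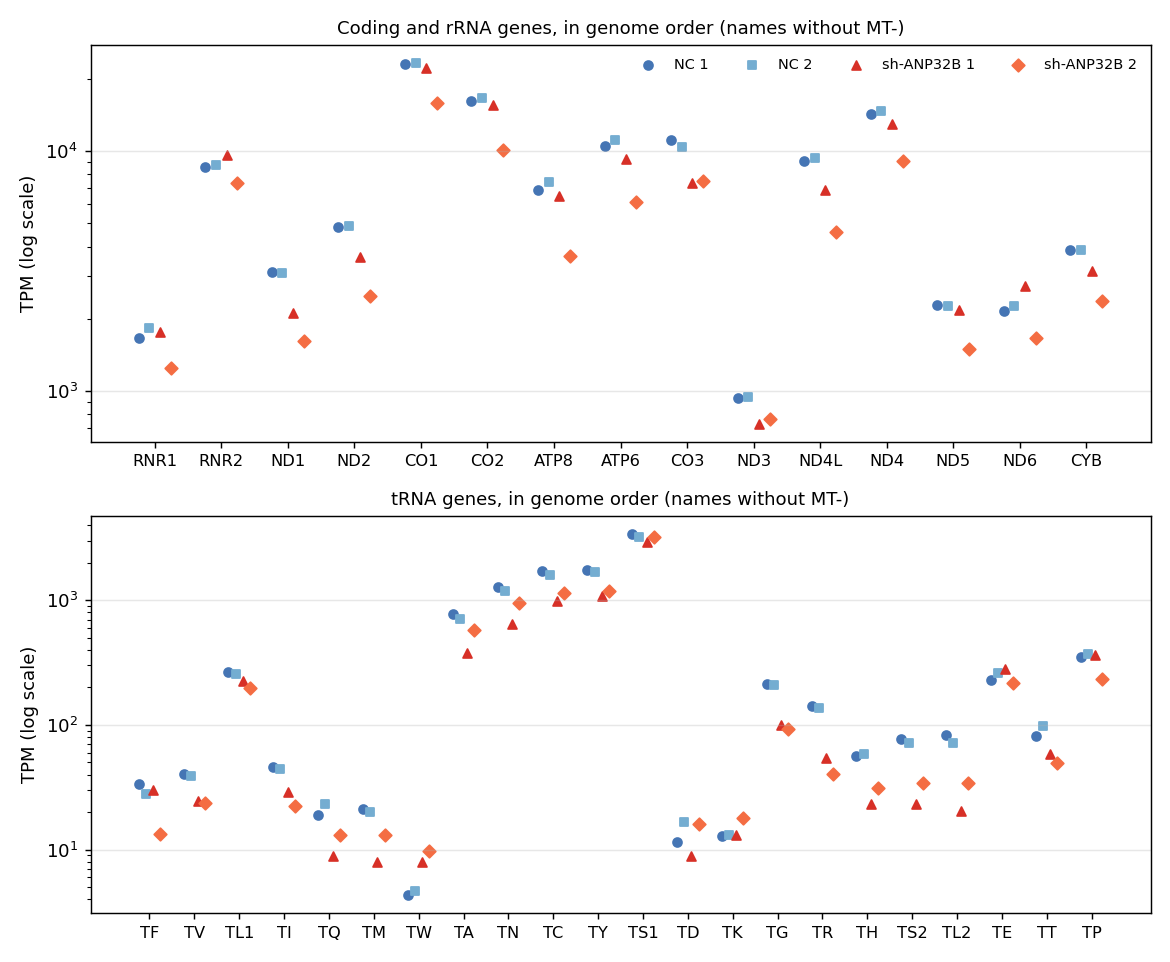
TPM on a log scale of every mitochondrial gene in genome order, coding and rRNA genes apart from tRNA genes, with 1 point for each of the 4 samples and the prefix MT- left off the names. MT-CO1 stands highest, at 15889.7 to 23405 TPM, and MT-TW lowest, at 4.33 to 9.74 TPM.

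Ratios between neighbouring genes on the circle do not depend on the total of the sample. The 15 genes that are not tRNA genes give 14 such ratios, and in 10 of them, 6 higher and 4 lower in sh-ANP32B, the groups did not overlap, which was so for 55.4% of ratios between neighbouring genes across the whole genome. The ratio of MT-ND1 to MT-RNR2, the rRNA gene before it, was 0.365 and 0.352 in NC and 0.220 and 0.218 in sh-ANP32B. The ratio of MT-CO1 to MT-ND2 was 4.75 and 4.82 in NC and 6.19 and 6.37 in sh-ANP32B. In both of these ratios the sh-ANP32B replicates lay close together, although their TPM values were far apart. The ratio of MT-CYB to MT-ND6, which lie on opposite strands, was 1.79 and 1.72 in NC and 1.15 and 1.43 in sh-ANP32B. The library was selected for poly(A) RNA by the kit named in the labels, and how far that shapes the MT-ND6 and rRNA levels was not tested. The library also does not mark strand, so reads of MT-ND6 and of plus-strand RNA across the same bases cannot be told apart. These ratios were not tested.

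The 2 rRNAs of the mitochondrial ribosome showed no called difference. MT-RNR1, the small subunit rRNA, was at 1667 and 1828 TPM in NC and at 1765 and 1249 TPM in sh-ANP32B (log2 fold change -0.23, SE 0.184, limma adjusted p = 0.492). MT-RNR2, the large subunit rRNA, was at 8580.1 and 8778 TPM in NC and at 9621 and 7380.03 TPM in sh-ANP32B (log2 fold change -0.04, SE 0.169, limma adjusted p = 0.913). Groups overlapped for both, and neither had an unadjusted p under 0.05. The direction of MT-RNR2 was not stable, as its log2 fold change was 0.14 after quantile normalization.

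The tRNA genes carried the called differences, 5 of 22 (22.7%). They lie in 2 short stretches of the plus strand. MT-TG and MT-TR, the tRNA genes for glycine and arginine, flank MT-ND3. MT-TH, MT-TS2 and MT-TL2, for histidine, serine and leucine, follow each other without a gap between MT-ND4 and MT-ND5. Their sequences are given 5′ to 3′ on the plus strand of hg38 with the anticodon in capitals, because each gene is so short that most sequenced fragments that touch it must reach into its neighbours. They span chrM:9991-10058, chrM:10405-10469, chrM:12138-12206, chrM:12207-12265 and chrM:12266-12336 in the order printed.
MT-TG: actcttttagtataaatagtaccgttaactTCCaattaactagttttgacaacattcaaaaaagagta
MT-TR: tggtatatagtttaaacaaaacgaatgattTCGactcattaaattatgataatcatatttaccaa
MT-TH: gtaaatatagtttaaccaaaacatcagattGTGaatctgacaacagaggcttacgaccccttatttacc
MT-TS2: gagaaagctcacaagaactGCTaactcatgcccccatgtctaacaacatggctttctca
MT-TL2: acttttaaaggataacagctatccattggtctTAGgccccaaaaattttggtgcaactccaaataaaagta
Mature tRNAs and uncut precursors cannot be told apart in these values, and the TPM of such short genes depends on how the counting program treats length, which is not given in the sources used here. The kit named in the labels selects poly(A) RNA, and how far these values reflect mature tRNAs was not tested.

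MT-TG (ENSG00000210164) was at 213 and 210.2 TPM in NC and at 99.0 and 93.5 TPM in sh-ANP32B. The NC mean was 212 ± 1.94 TPM and the sh-ANP32B mean 96.3 ± 3.89 TPM (SD, n = 2 each), and the gene fell by 1.13 on the log2 scale (SE 0.123, limma adjusted p = 0.0258). The replicates of each group agreed closely for this gene, and the groups were far apart. MT-TR (ENSG00000210174) was at 141 and 138 TPM in NC and at 54.6 and 40.6 TPM in sh-ANP32B, and it fell by 1.55 on the log2 scale (SE 0.171, limma adjusted p = 0.0258). At 34.1% of its NC mean, MT-TR had the most negative log2 fold change of the 37 genes. MT-ND3, the coding gene between the pair, was at 79.6% of its NC mean.

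In the second stretch, MT-TH (ENSG00000210176) was at 56.5 and 59.0 TPM in NC and at 23.1 and 31.1 TPM in sh-ANP32B, and it fell by 1.08 on the log2 scale (SE 0.181, limma adjusted p = 0.0425). MT-TS2 (ENSG00000210184) was at 77.3 and 71.2 TPM in NC and at 23.2 and 34.4 TPM in sh-ANP32B, and it fell by 1.36 on the log2 scale (SE 0.207, limma adjusted p = 0.0362). MT-TL2 (ENSG00000210191) was at 83.4 and 71.6 TPM in NC and at 20.3 and 34.1 TPM in sh-ANP32B, and it fell by 1.52 on the log2 scale (SE 0.248, limma adjusted p = 0.0406). In all 3 genes sh-ANP32B replicate 1 was the lowest sample, the reverse of the flanking MT-ND4 and MT-ND5. Their sh-ANP32B means were 46.9%, 38.8% and 35.1% of NC, where MT-ND4 stood at 76.3% and MT-ND5 at 80.7%.

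The 4 tRNA genes between MT-ND2 and MT-CO1 on the minus strand form a further run and were far more abundant per length. MT-TA, for alanine, was at 773 and 702 TPM in NC and at 379.8 and 576 TPM in sh-ANP32B. MT-TN, for asparagine, was at 1272 and 1179 TPM in NC and at 648 and 954 TPM in sh-ANP32B. MT-TC, for cysteine, was at 1722 and 1590.4 TPM in NC and at 985 and 1147 TPM in sh-ANP32B. MT-TY, for tyrosine, was at 1741 and 1674 TPM in NC and at 1079 and 1196 TPM in sh-ANP32B. All 4 had groups that did not overlap, with replicate 1 the lower of the sh-ANP32B samples, and log2 fold changes between -0.65 and -0.59. Their limma adjusted p-values were 0.122, 0.116, 0.0572 and 0.0581 in the order given, so none was called. They are shown on their own strand, 5′ to 3′ in hg38, with the anticodon in capitals, since the 4 samples stood in the same order in all of them. They span chrM:5587-5655, chrM:5657-5729, chrM:5761-5826 and chrM:5826-5891.
MT-TA: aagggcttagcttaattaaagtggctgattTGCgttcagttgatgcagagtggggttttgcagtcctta
MT-TN: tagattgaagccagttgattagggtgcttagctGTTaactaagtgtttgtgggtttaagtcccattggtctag
MT-TC: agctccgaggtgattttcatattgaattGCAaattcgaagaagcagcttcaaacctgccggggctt
MT-TY: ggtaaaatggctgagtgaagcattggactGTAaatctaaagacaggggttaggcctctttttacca
The library kit named in the labels selects poly(A) RNA and does not mark strand, so reads from these genes and from plus-strand RNA across the same bases cannot be told apart.

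The same limit holds for the other minus-strand genes, among them MT-TS1, the serine tRNA gene opposite the end of the MT-CO1 messenger. It was at 3407 and 3202 TPM in NC and at 2939.8 and 3205 TPM in sh-ANP32B (log2 fold change -0.11, limma adjusted p = 0.677), the highest level per length of the tRNA genes, and its groups overlapped. MT-TE, the glutamate tRNA gene next to MT-ND6, was at 230.2 and 261 TPM in NC and at 283 and 219 TPM in sh-ANP32B (log2 fold change 0.02, limma adjusted p = 0.957), again with the NC samples between the others. Its sign was negative after median-of-ratios, upper-quartile, quantile or nuclear-total scaling. MT-TP, for proline, was at 348 and 374 TPM in NC and at 366 and 232 TPM in sh-ANP32B (log2 fold change -0.30, limma adjusted p = 0.441). For these 3 genes the comparison showed no difference beyond the replicate spread. MT-TQ, for glutamine, was at 18.9 and 23.4 TPM in NC and at 8.87 and 13.1 TPM in sh-ANP32B (log2 fold change -0.90, limma adjusted p = 0.0845).

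Of the plus-strand tRNA genes, 12 had a negative log2 fold change, and MT-TW and MT-TK a positive one. MT-TW, for tryptophan, was at 4.33 and 4.64 TPM in NC and at 7.94 and 9.74 TPM in sh-ANP32B (log2 fold change 0.84, SE 0.224, limma adjusted p = 0.0898). Both sh-ANP32B samples were above both NC samples, at 197% of the NC mean, but the gene had the lowest NC level of the 37 and was not called. MT-TK, for lysine, was at 12.9 and 13.1 TPM in NC and at 13.1 and 17.8 TPM in sh-ANP32B (log2 fold change 0.22, limma adjusted p = 0.570), so that its lower sh-ANP32B value lay just above NC. MT-TD, for aspartate, was at 11.6 and 16.7 TPM in NC and at 8.86 and 15.97 TPM in sh-ANP32B (log2 fold change -0.21, limma adjusted p = 0.739), with overlapping groups. The direction of MT-TD changed when NC replicate 2 or sh-ANP32B replicate 1 was left out.

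The tRNA genes next to the rRNA genes and MT-ND1 were lower to differing degrees. MT-TV, for valine, between the rRNA genes, was at 40.6 and 39.2 TPM in NC and at 24.4 and 23.4 TPM in sh-ANP32B (log2 fold change -0.71, limma adjusted p = 0.0551). MT-TI, for isoleucine, was at 45.9 and 44.7 TPM in NC and at 28.8 and 22.2 TPM in sh-ANP32B (log2 fold change -0.82, limma adjusted p = 0.0581). MT-TM, for methionine, was at 21.0 and 20.1 TPM in NC and at 7.88 and 13.04 TPM in sh-ANP32B (log2 fold change -0.95, limma adjusted p = 0.0867). The groups of these 3 did not overlap, whereas both rRNA genes around MT-TV had overlapping groups. MT-TL1, for leucine, after MT-RNR2, was at 265 and 258 TPM in NC and at 226 and 196 TPM in sh-ANP32B (log2 fold change -0.31, limma adjusted p = 0.210). MT-TT, for threonine, after MT-CYB, was at 81.7 and 98.6 TPM in NC and at 58.2 and 49.4 TPM in sh-ANP32B (log2 fold change -0.73, limma adjusted p = 0.0609). MT-TF, for phenylalanine, the first gene of the heavy-strand transcript, was at 33.8 and 27.7 TPM in NC and at 30.3 and 13.4 TPM in sh-ANP32B (log2 fold change -0.58, limma adjusted p = 0.373). MT-TL1 and MT-TT were lower in both sh-ANP32B samples than in either NC sample, and the groups of MT-TF overlapped.

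Across the 22 tRNA genes, 15 had both sh-ANP32B samples below both NC samples (68.2%, against 21.4% of all genes tested), 2 had both above and 5 overlapped. The median log2 fold change was -0.65, made up of -0.77 over the 14 tRNA genes of the plus strand, which held the 5 calls, and -0.61 over the 8 of the minus strand, which held none by limma and 5 at an unadjusted p under 0.05. The plus-strand tRNA genes summed to 0.109% and 0.107% of the TPM total in NC and 0.0627% and 0.0596% in sh-ANP32B. In that sum the sh-ANP32B replicates were nearly equal, unlike in the coding genes.

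**Figure D3:**
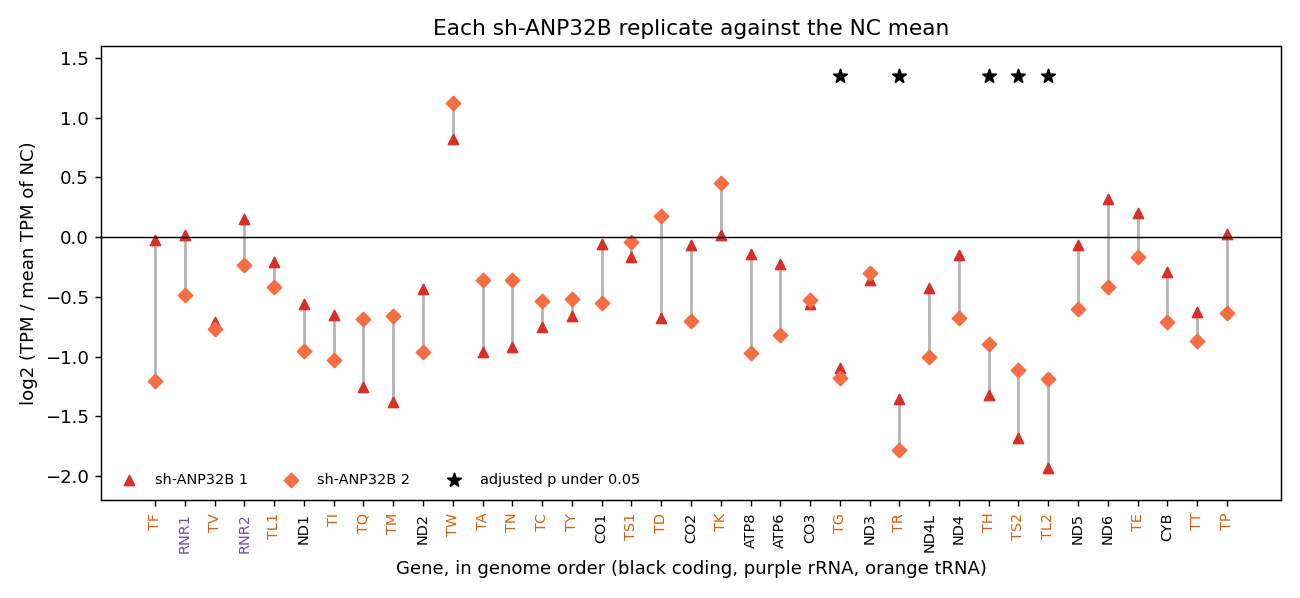
log2 ratio of each sh-ANP32B replicate to the NC mean for the 37 genes in genome order, with stars at the 5 genes with an adjusted p under 0.05. Replicate 2 lies below replicate 1 in 11 of the 13 coding genes, while replicate 1 is the lower of the pair in 13 of the 22 tRNA genes.

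How the sh-ANP32B replicates differed from each other depended on the class of gene. Against the NC mean, the median log2 ratio of the 13 coding genes was -0.22 in sh-ANP32B replicate 1 and -0.70 in replicate 2. In the 22 tRNA genes it was -0.67 in replicate 1 and -0.62 in replicate 2, but the strands differed. In the 14 plus-strand tRNA genes it was -0.66 in replicate 1 and -0.86 in replicate 2. In the 8 minus-strand tRNA genes it was -0.70 in replicate 1 and -0.44 in replicate 2. In the 2 rRNA genes it was 0.08 in replicate 1 and -0.36 in replicate 2. The near-equal medians of the 22 tRNA genes together came with wide gaps in single genes. There the difference between replicate 2 and replicate 1 on the log2(TPM + 1) scale ran from -1.12 to 0.78. Replicate 2 was below replicate 1 in 11 of 13 coding genes, the exceptions being MT-CO3 and MT-ND3, against 52.4% of all genes tested.

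The 2 sh-ANP32B samples also differed by GC content across the nuclear genes. When nuclear genes were cut into 10 bins by GC content, in the bin with the lowest GC content (22.8% to 38.2%) the median difference between replicate 2 and replicate 1 on the log2(TPM + 1) scale was -0.36, and in the bin with the highest (61.3% to 86.4%) it was 0.44. The 13 coding genes, at 39.6% to 47.7% GC, had a median difference of -0.53 between these replicates, and 5069 nuclear genes over the same GC range had -0.20. The 22 tRNA genes, at 23.1% to 49.3% GC, had a median difference of 0.18, and 8282 nuclear genes over their range had -0.23. So the coding genes were further down and the tRNA genes further up than nuclear genes of like GC content. After correction for GC content, the coding genes had a median log2 ratio to NC of -0.33 in replicate 1 and -0.68 in replicate 2, and a median difference of -0.38 between these replicates. The tRNA genes then had -0.83 in replicate 1 and -0.56 in replicate 2, with a median difference of 0.35 and replicate 2 the lower in 5 of 22. The NC replicates differed by a median of 0.02 over the 13 coding genes. What part the GC shift has in the levels given above was not tested further.

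**Figure D4:**
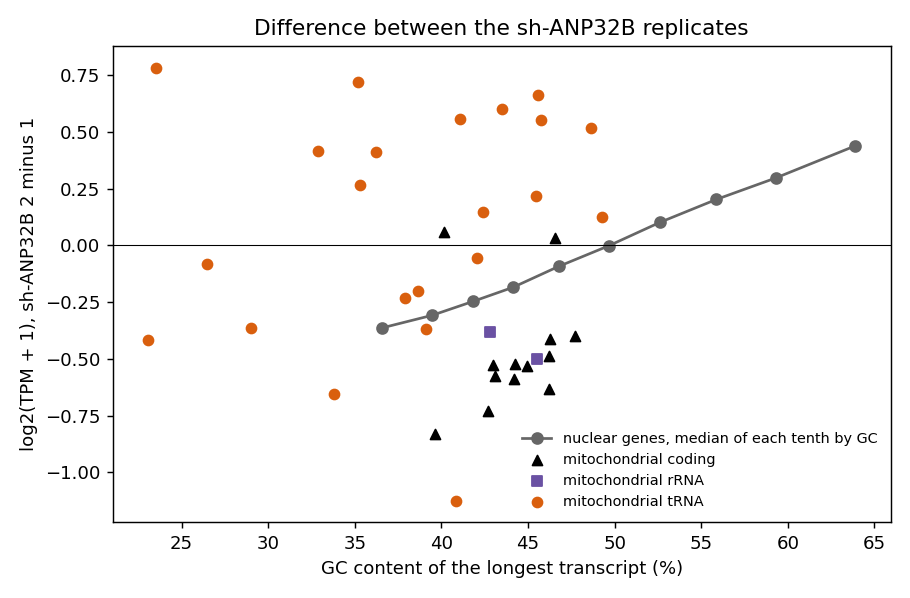
Difference of log2(TPM + 1) between sh-ANP32B replicates 2 and 1 against the GC content (%) of the longest transcript, for each mitochondrial gene and as the median of each of 10 bins of nuclear genes by GC content. The nuclear line climbs from -0.36 to 0.44, most mitochondrial coding genes lie under it, and the tRNA genes scatter widely around it.

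The machinery that replicates mitochondrial DNA and transcribes, processes, modifies and stabilizes its RNA is encoded in the nucleus. Of its genes and their nuclear regulators, 67 were listed for comparison, of which 66 were tested. Of the 66, 1 fell and 0 rose by limma, 13 were lower and 1 was higher at an unadjusted p under 0.05, and the median log2 fold change was -0.22. Over all genes tested 1.18% fell by limma, and 8.72% were lower and 15.0% higher at an unadjusted p under 0.05. The single call is near its background, while 13 lower of 66 is above the 8.72% and 1 higher is below the 15.0%. Both sh-ANP32B samples lay below both NC samples in 34 of the 66 and above both in 9, against 21.4% and 33.2% of all genes tested. TWNK, the helicase that unwinds mitochondrial DNA for replication, was at 26.6 and 23.9 TPM in NC and at 11.99 and 12.8 TPM in sh-ANP32B, and it fell by 0.97 on the log2 scale (SE 0.170, limma adjusted p = 0.0440). Its replicates lay close together in each group. The count of 1 became 0 without either NC replicate, 17 without sh-ANP32B replicate 1 and 12 without sh-ANP32B replicate 2, when 24.3% and 20.7% of all genes tested were called.

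The transcription factors of mitochondrial DNA were not called. POLRMT, the mitochondrial RNA polymerase, was at 53.9 and 53.0 TPM in NC and at 54.6 and 70.3 TPM in sh-ANP32B (log2 fold change 0.21, limma adjusted p = 0.490), and its sign was negative after GC correction. TFAM, which packages mitochondrial DNA and opens its promoters, was at 28.1 and 30.4 TPM in NC and at 24.2 and 19.6 TPM in sh-ANP32B (log2 fold change -0.41, limma adjusted p = 0.221). TFB2M, the initiation factor that works with POLRMT, was at 25.8 and 29.8 TPM in NC and at 21.6 and 19.2 TPM in sh-ANP32B (log2 fold change -0.43, limma adjusted p = 0.190). LRPPRC, which binds and stabilizes mitochondrial messengers, was at 140.0 and 144 TPM in NC and at 115 and 81.3 TPM in sh-ANP32B (log2 fold change -0.55, limma adjusted p = 0.135). Apart from POLRMT, all these had both sh-ANP32B samples below both NC samples, with replicate 2 the lower of the pair. Replicate 2 was below replicate 1 in 33 of the 66 genes of this list, against 52.4% of all genes tested. The medians were -0.35 over 7 transcription genes, -0.26 over 11 replication genes, -0.23 over 21 RNA processing and stability genes, -0.21 over 20 RNA modification genes and -0.20 over 7 nuclear regulators.

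The nuclear partners of the mitochondrially encoded subunits stood closer to NC. Of 79 nuclear subunits of complexes I to V, 1 fell and 0 rose by limma, 13 were lower at an unadjusted p under 0.05, and the median log2 fold change was -0.11. The background was again 1.18% called lower and 8.72% lower at an unadjusted p under 0.05. The 1 call is near the first share, and 13 lower of 79 is above the second. Both sh-ANP32B samples lay below both NC samples in 29 of the 79 and above both in 6, against 21.4% and 33.2% of all genes tested. UQCR11, a small subunit of complex III, was at 60.9 and 63.2 TPM in NC and at 29.8 and 27.4 TPM in sh-ANP32B, and it fell by 1.09 on the log2 scale (SE 0.143, limma adjusted p = 0.0304). The medians were -0.10 for complex I, 0.01 for complex II, which has no mitochondrially encoded subunit, -0.03 for complex III, -0.26 for complex IV and -0.19 for complex V. This count, too, became 0 without either NC replicate, 29 without sh-ANP32B replicate 1 and 24 without sh-ANP32B replicate 2, again with 24.3% and 20.7% of all genes tested called.

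The balance between both genomes was set out per complex, as the mean TPM of the mitochondrial subunits divided by that of the nuclear subunits. For complex I it was 51.3 and 53.4 in NC and 49.0 and 29.9 in sh-ANP32B. For complex III it was 17.3 and 17.4 in NC and 16.1 and 10.1 in sh-ANP32B. In both complexes replicate 1 was slightly and replicate 2 clearly below NC. For complex IV it was 68.5 and 68.8 in NC and 76.0 and 46.3 in sh-ANP32B, and for complex V it was 39.1 and 42.2 in NC and 40.2 and 23.7 in sh-ANP32B. In complexes IV and V the groups overlapped, so a lower ratio in every complex was seen in sh-ANP32B replicate 2 and not in replicate 1.

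**Figure D5:**
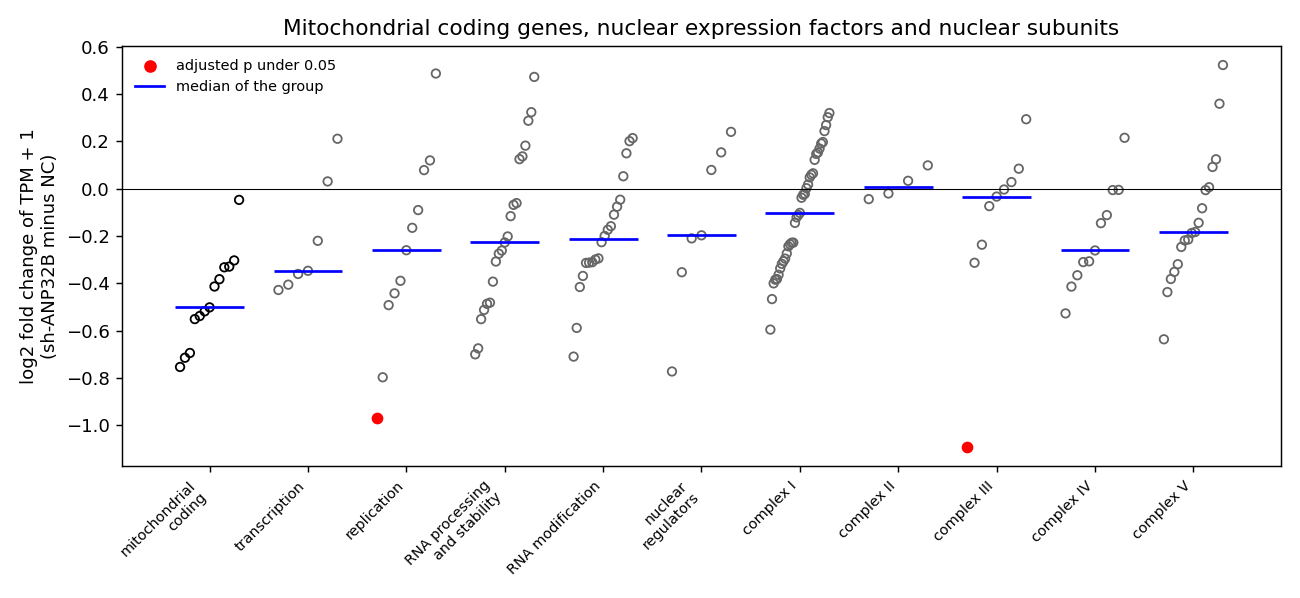
log2 fold change of TPM + 1 (sh-ANP32B minus NC) of each mitochondrial coding gene, each nuclear gene for mitochondrial DNA and RNA upkeep and each nuclear subunit of complexes I to V, with the median of each group as a line and genes with an adjusted p under 0.05 filled. The median is -0.50 for the mitochondrial coding genes, and the 2 filled points are TWNK among the replication genes and UQCR11 among the complex III subunits.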

How the data were processed

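RNA from 2 NC and 2 sh-ANP32B samples of Kasumi-1 was sequenced. The authors aligned reads to hg38 with HISAT2 (v2.0.5). The deposited values are TPM, identified as such from the values, and the program, annotation and filters behind them are not given in the sources used here. TPM keeps no depth, so no counting interval was computed. The authors used DESeq2, a count model that TPM values cannot enter.

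Symbols, positions and GC content came from GENCODE release 44 (hg38), which matched 16986 of 18567 gene IDs and left 1581 unmatched. Coordinates are from that annotation and sequences from the hg38 genome. Genes that reached 1 TPM in 2 or more samples entered the fit, and log2(TPM + 1) values of the 4 samples were compared with limma 3.58.1 in R 4.3.3, with an abundance trend and Benjamini-Hochberg adjustment, two-sided. Fold changes on this scale understate changes of low genes. The test was tested on simulated data. Other steps used Python 3.11.15, pandas 2.3.3, numpy 2.4.6 and matplotlib 3.10.9.

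The mitochondrial genes, the gene lists and the tests were chosen with earlier results of these data known. Every mitochondrial gene is named. Beside them are named ANP32B, 4 chosen expression factors, called factors and nuclear subunits, and the 4 most abundant nuclear copies. Alternatives were other scalings, filters, a pseudocount of 0.1, GC correction, replicate blocks, variance models, thresholds and leaving out each replicate. The markers of other cell types are not reported here.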

Additional observations from a re-analysis of the deposited data

How the results depend on the processing

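The 5 called mitochondrial genes were called under every alternative fitted to all 4 samples except 2. With limma fitted without the abundance trend 0 of the 37 were called (19 at an unadjusted p under 0.05), and at an adjusted p under 0.01 also 0 (23 at an unadjusted p under 0.05). Without the trend 0 of all 16817 genes tested were called, and ANP32B itself had a limma adjusted p of 0.0929. The 0 of that fit is therefore not particular to any list. The numbers of mitochondrial genes, expression factors and nuclear subunits called were 8, 2 and 3 after median-of-ratios scaling, 14, 16 and 12 after GC correction, 11, 2 and 3 with 1 TPM required in every sample, and 21, 8 and 4 by the criterion of the study (unadjusted p under 0.05 and a log2 fold change beyond 0.5 either way). Of all genes tested, 3.08%, 16.5% and 5.61% were called under the first 3 of these, against 3.32% in the reported fit. Upper-quartile scaling called 2 expression factors, and quantile normalization and nuclear-total scaling each called 2 expression factors and 2 nuclear subunits. Without the trend and at an adjusted p under 0.01, 0 expression factors (11 and 14 at an unadjusted p under 0.05) and 0 nuclear subunits (5 and 13) were called, and with an absolute log2 fold change over 1 required as well 0 expression factors were called. Leaving out 1 replicate gave 4 to 33 mitochondrial genes, 0 to 17 expression factors and 0 to 29 nuclear subunits, a coding-gene median between -0.70 and -0.22, and a share difference between -4.60 and -1.59 points. Weighted by transcript length the share difference was -1.01 points, from 4.15% to 3.13%.

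Nothing states that equal replicate numbers pair samples, and across genes the deviations of samples with equal numbers correlated weakly and negatively (Pearson r = -0.0925, Spearman rho = -0.168). With the replicate number as a block, 16 mitochondrial genes, 5 expression factors and 2 nuclear subunits were called, and 10, 6 and 10 with the block and GC correction together, where 8.76% and 11.3% of all genes tested were called. With the crossed pairing, chosen after seeing the data, the block called 17, 6 and 4, and 11.9% of all genes tested.

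The log2 fold change changed sign for MT-RNR2 (0.14) and MT-ND6 (0.054) after quantile normalization, for MT-TE after median-of-ratios (-0.072), upper-quartile (-0.042), quantile (-0.0022) and nuclear-total scaling (-0.028), and for POLRMT after GC correction without or with the block (-0.065). Over the fits that left out 1 replicate it ran from -0.48 to 0.016 for MT-RNR1, -0.23 to 0.15 for MT-RNR2, -0.60 to 0.19 for MT-TD, -0.41 to 0.32 for MT-ND6, -0.16 to 0.21 for MT-TE, -0.63 to 0.023 for MT-TP and -0.19 to 0.46 for MTCO1P12. The cause of these changes was not tested. Depth is unknown, and 2 samples a group limit every comparison.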

Other observations

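The nuclear genome holds near-identical copies of mitochondrial genes, and 12 of them were in the table, with 0.263% and 0.278% of the TPM total in NC and 0.231% and 0.151% in sh-ANP32B. Reads may be shared with the mitochondrial originals, so these values are uncertain. The 4 most abundant copies lie together on chromosome 1. MTATP6P1 was at 1653 and 1781 TPM in NC and at 1432 and 941 TPM in sh-ANP32B (log2 fold change -0.56, limma adjusted p = 0.165), and its groups were apart as for MT-ATP6. MTND2P28 was at 656 and 660.0 TPM in NC and at 434 and 289 TPM in sh-ANP32B (log2 fold change -0.89, limma adjusted p = 0.0608), also apart as for MT-ND2. MTCO1P12 was at 293 and 317 TPM in NC and at 421 and 266 TPM in sh-ANP32B (log2 fold change 0.14, limma adjusted p = 0.757), and its groups overlapped where those of MT-CO1 did not. MTCO3P12 was at 3.83 and 4.23 TPM in NC and at 2.61 and 2.66 TPM in sh-ANP32B (log2 fold change -0.47, limma adjusted p = 0.315), with sh-ANP32B replicates as close to each other as those of MT-CO3.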
